A study of Rattus norvegicus with 6 samples.

Results

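The neurotrophic factors Bdnf, Ntf3 and Gdnf, the receptors Ngfr, Ntrk2 and Ntrk3, and the sorting receptor Sort1 were followed in primary nucleus pulposus cells of the rat, which make up the soft centre of the disc between vertebrae. The 7 genes were taken by name, and were chosen by their levels and transcript shares in the rShh against Control contrast of these same libraries, from a deposited table of 19088 genes. Of them, 6 had a row, and Ntf3 (neurotrophin 3, the ligand of the receptor encoded by Ntrk3), without one, counts as not detected under the selection rule. For Bdnf, the 7 transcripts among the 24343 of the deposited isoform table were added. The rShh group held 3 samples from Sprague Dawley rats whose cells received recombinant Sonic hedgehog, the secreted ligand of the Hedgehog pathway, for 48 h at a dose of 200 ng/ml. The Control group held 3 samples of primary cells of the same type and strain, given DMSO, the solvent, for 48 h. All cells were grown in medium with fetal bovine serum. Whether the 3 samples of a group were separate cultures or separate animals is not labelled, and p-values therefore measure a spread between samples that may be technical.

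Neurotrophins are secreted as precursors that are cut to the mature growth factor. Mature BDNF acts through the receptor tyrosine kinase TrkB, the product of Ntrk2. The precursors bind the p75 receptor, the product of Ngfr, together with sortilin, the product of Sort1, which also steers the BDNF precursor through the secretory route. GDNF belongs to another family and signals through GFR-alpha co-receptors and the kinase RET. In the disc these factors are studied mainly for nerve ingrowth and pain. The Bdnf gene has several starts, each with its own 5' exon, that are all spliced to a common 3' exon with the coding sequence.

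Of the Bdnf transcripts, 6 of 7 could be given an upstream sequence from RefSeq (build GRCr8), because their starts lay at the same distances from the first start of the gene in the deposited table and in RefSeq. The 250 bases before 2 of these starts are shown. ENSRNOT00000080190 differed in share between the groups, and ENSRNOT00000083542 stood apart in 1 Control library only. ENSRNOT00000083542 starts first, and its upstream window is chr3:116619383-116619632 on the plus strand. ENSRNOT00000080190 starts 18225 bases further on, with the window chr3:116637608-116637857. Capitals mark the core letters of the cAMP response element, TGACG or its complement CGTCA, on which CREB family factors act.
ENSRNOT00000083542: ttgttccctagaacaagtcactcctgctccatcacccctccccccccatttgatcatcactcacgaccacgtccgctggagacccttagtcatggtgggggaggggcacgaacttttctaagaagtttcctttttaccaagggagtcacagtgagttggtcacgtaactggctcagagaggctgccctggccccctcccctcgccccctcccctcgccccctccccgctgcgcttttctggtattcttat
ENSRNOT00000080190: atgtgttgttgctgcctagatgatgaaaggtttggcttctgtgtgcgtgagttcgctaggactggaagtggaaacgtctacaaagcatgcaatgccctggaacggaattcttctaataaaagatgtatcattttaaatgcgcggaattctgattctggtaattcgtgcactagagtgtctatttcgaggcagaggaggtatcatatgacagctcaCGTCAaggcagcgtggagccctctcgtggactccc
The core letters stood once in the window of ENSRNOT00000080190, from 35 bases before the start, and in none of the other 5 windows. Of those 5, the windows of ENSRNOT00000083289 and ENSRNOT00000090445 share most of their bases, with starts 20169 and 20225 bases after the first. The core letters stood in 18.2% of the 33465 rat promoter windows of the same length, searched on both strands. The full element TGACGTCA (1.59% of all windows), the E-box CACGTG (5.59%) and the GLI consensus GACCACCCA (0.338%) were in none of the 6 Bdnf windows. The core letters are part of the full element, so these 2 searches overlap. These matches describe the letters alone. The start of ENSRNOT00000073636, 19319 bases after the first, had no counterpart among the RefSeq starts, and no sequence is given for it.

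The libraries had gene counts of 65116846 to 70031072 in the rShh group and 50758195 to 55501124 in the Control group. The mitochondrial share of the counts was 3.25% to 3.36% in the rShh libraries and 1.97% to 2.28% in the Control libraries. Of 20 genes on chromosome Y, 4 had 912 to 7120 counts in every rShh library and 0 counts in every Control library. The labels give no sex. Cells split from a shared pool would not be expected to differ in this way, and the groups may come from different animals. This difference cannot be told apart from the treatment in any result below. Among nucleus pulposus and notochordal markers, 12 of the 13 with a row were tested, with 6 higher and 5 lower under rShh. The share that passed (edgeR adjusted p below 0.05) was 91.7%, against 60.3% of all genes tested. The list is short, so nothing is read from this share. Ca12, among the rises, had 79, 136 and 109 counts in the rShh and 0, 0 and 4 in the Control libraries. It passed the filter on low counts only through the rShh libraries, as Col2a1, among the falls, did only through the Control libraries. The summed level of the 13 markers was 1229.7 to 1241 CPM in the rShh and 441 to 462 CPM in the Control libraries. Acan averaged 586 CPM in rShh and 56.5 CPM in Control cells, Krt8 2.11 CPM in rShh and 12.6 CPM in Control cells, Cd24 15.4 CPM in rShh and 51.2 CPM in Control cells, and Col2a1 0.107 CPM in rShh and 1.61 CPM in Control cells. Hif1a averaged 253 CPM in rShh and 78.6 CPM in Control cells, and Slc2a1 193 CPM in rShh and 88.7 CPM in Control cells. Most of the rShh sum was Acan, Hif1a and Slc2a1. Pax1 averaged 68.5 CPM in rShh and 89.8 CPM in Control cells. Foxf1, at 50.8 CPM in rShh and 47.0 CPM in Control cells, did not pass. Krt18 had at most 9 counts in any library, and Tbxt, Krt19 and Noto were not detected. Several defining markers of the labelled cell type are thus low or absent in both groups, while others are well expressed. In bulk RNA, fewer cells of a type and less RNA per cell cannot be told apart.

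The ligands Bdnf and Gdnf were both detected, and they differed in direction. Bdnf (ENSRNOG00000047466, chromosome 3, 100768637 to 100819210, plus strand; all gene and transcript positions are those of the deposited tables, whose build is not given in the sources used here) was slightly lower in the rShh group. It had 93.3, 87.9 and 94.3 CPM (counts scaled to a common library size with TMM factors) in the rShh libraries, against 122, 111 and 102 CPM in the Control libraries. Every rShh value lay below every Control value, but the lowest Control library, at 102 CPM, was close to the highest rShh library. The means were 91.8 ± 3.46 CPM in rShh cells and 111 ± 10.1 CPM in Control cells (SD, n = 3 each), a ratio of 0.824 and a log2 change of -0.28 (SE 0.07). Behind these values stood 6018 to 6173 counts in the rShh libraries and 5164 to 6898 in the Control libraries.

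Gdnf (ENSRNOG00000012819, chromosome 2, 56887987 to 56910238, plus strand), a survival factor for motor and dopaminergic neurons, was higher in the rShh group. It had 6.93, 7.54 and 6.63 CPM in the rShh libraries, against 4.44, 3.45 and 3.31 CPM in the Control libraries. All 3 rShh libraries lay above the highest Control library. The means were 7.03 ± 0.465 CPM in rShh cells and 3.73 ± 0.615 CPM in Control cells (SD, n = 3 each), a 1.88-fold difference with a log2 change of 0.91 (SE 0.16). The table holds 1 Gdnf transcript, ENSRNOT00000041288, of 700 bases in 3 exons.

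Sort1 (ENSRNOG00000031814, chromosome 2, 211078334 to 211156312, plus strand) had the largest difference among the well-counted genes of the group. It had 80.3, 79.8 and 74.5 CPM in the rShh libraries, against 152, 183 and 174 CPM in the Control libraries. The groups were far apart, the highest rShh value lying well below the lowest Control value. The means were 78.2 ± 3.21 CPM in rShh cells and 169.7 ± 15.9 CPM in Control cells (SD, n = 3 each), a ratio of 0.461 and a log2 change of -1.12 (SE 0.07). Its only transcript in the table, ENSRNOT00000049127, spans 20 exons and 6690 bases.

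The receptors were low, and each had libraries with a count of 0. The floor that a count of 0 allows was set at 3 counts. It equals 0.0431 to 0.0465 CPM in the rShh libraries and 0.0530 to 0.0591 CPM in the Control libraries. This floor covers counting error only. Ntrk2 (ENSRNOG00000018839, chromosome 17, 5933729 to 6244676, minus strand) had 30, 51 and 41 counts in the rShh libraries, against 8, 0 and 0 in the Control libraries. Its level was 0.608 ± 0.135 CPM in rShh cells and 0.0472 ± 0.0817 CPM in Control cells (SD, n = 3 each), and the groups did not overlap. The gene passed the filter on low counts only through the rShh libraries, so it could enter the fit only by differing. Its log2 change of 3.59 (SE 0.999) rested on the 8 counts of Control replicate 1, since without that library the fitted value was 8.21, which depends on the fit's prior count. Of its transcripts, ENSRNOT00000090914, with 13 exons, had 17, 51 and 41 counts in the rShh libraries and 8, 0 and 0 in the Control libraries. ENSRNOT00000082611, with 19 exons, had 13 counts in rShh replicate 1 and 0 in the other 5 libraries. Ntrk2 is known to make a full-length kinase receptor and shorter forms without the kinase, and which of these the listed transcripts encode is not given in the sources used here.

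Ntrk3 (ENSRNOG00000018674, chromosome 1, 139890560 to 140262503, minus strand), the receptor of neurotrophin 3, had 10, 9 and 15 counts in the rShh libraries, against 0, 12 and 5 in the Control libraries. Ngfr (ENSRNOG00000005392, chromosome 10, 83389847 to 83408061, minus strand) had 0, 9 and 4 counts in the rShh libraries, against 22, 6 and 0 in the Control libraries. The groups overlapped for both genes. Neither passed the filter on low counts, and at this depth no difference could be detected. Their mean levels were 0.171 ± 0.0518 CPM in rShh and 0.107 ± 0.112 CPM in Control cells for Ntrk3, and 0.0635 ± 0.0647 CPM in rShh and 0.167 ± 0.200 CPM in Control cells for Ngfr (SD, n = 3 each).

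**Figure D1:**
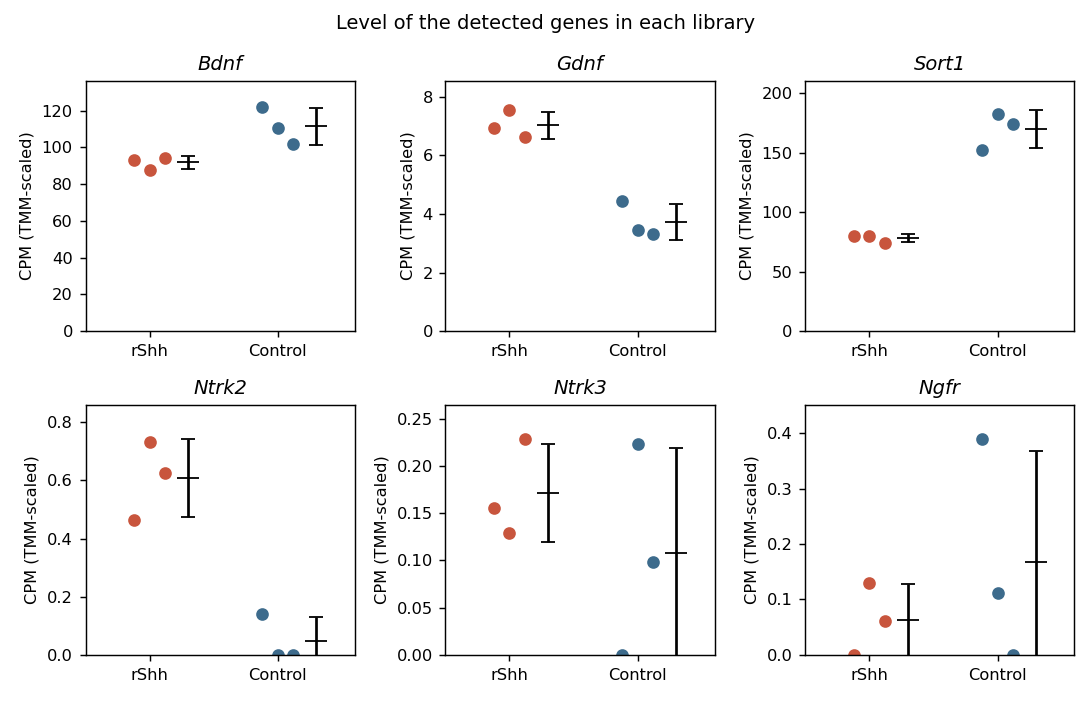
Level in TMM-scaled CPM of the 6 detected genes, with a point for each library and the mean and SD beside the points (n = 3 each); each panel has its own axis from 0. Bdnf and Sort1 lay lower, and Gdnf and Ntrk2 higher, in every rShh library than in every Control library, while Ntrk3 and Ngfr overlapped.

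Of the 6 genes with a row, 4 passed the filter on low counts, and these 4 had groups without overlap, 2 higher and 2 lower. Of all 14775 genes that passed the filter, 68.1% had groups without overlap, 35.7% higher and 32.5% lower. The members were chosen by this contrast, so nothing is read from that count and no p is given for them. With edgeR's quasi-likelihood test, 60.3% of all genes tested passed at an adjusted p below 0.05, with 31.5% higher and 28.8% lower under rShh. The median log2 change over these genes was 0.01.

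Between genes, levels can be compared only per length, as FPKM (fragments scaled to transcript length and sequencing depth). In rShh cells Bdnf was highest when its transcripts were summed, at 19.3 ± 0.602 FPKM, followed by Sort1 at 9.84 ± 0.386 and Gdnf at 8.45 ± 0.636 FPKM (SD, n = 3 each). In Control cells Bdnf at 23.2 ± 2.38 and Sort1 at 21.2 ± 1.80 FPKM were within their spread of each other, and Gdnf followed at 4.46 ± 0.785 FPKM. The receptors Ntrk2, Ntrk3 and Ngfr, summed over their transcripts in the same way, lay between 0.0160 and 0.0743 FPKM on average in rShh cells and between 0.00545 and 0.0409 FPKM in Control cells, and their order is not readable at these counts. The gene-level FPKM of Bdnf in the deposited table was lower, at 12.7 ± 0.397 in rShh and 15.4 ± 1.54 in Control cells (SD, n = 3 each). Its counts and FPKM imply a length of 6069 bases, longer than any of the 7 transcripts (3864 to 4291 bases), so gene-level FPKM understates Bdnf against genes with 1 transcript. The ratio between the groups was 0.828 by gene-level FPKM and 0.834 by the summed transcripts.

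The Bdnf transcripts differed more between the groups than the gene did. All 7 end at the same position, 100819210, and 6 of them have 2 exons, so they differ mainly in their starts. How reads from the shared part were assigned to transcripts is not given in the sources used here, so the shares are the authors' estimates. ENSRNOT00000073636, which starts at 100787956, was the most abundant transcript in all 6 libraries. It made up 65.0%, 63.1% and 60.3% of the summed Bdnf FPKM in the rShh libraries, against 79.6%, 59.3% and 82.1% in the Control libraries. The groups overlapped in this share, because Control replicate 2 lay below all other libraries.

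ENSRNOT00000080190, which starts at 100786862 and whose upstream sequence holds the cAMP response element core, took a larger share in the rShh group. It made up 32.6%, 36.5% and 38.9% of Bdnf FPKM in the rShh libraries, against 19.6%, 15.9% and 16.8% in the Control libraries. The lowest rShh share was above the highest Control share by more than the spread within either group. The means were 36.0% ± 3.22 in rShh cells and 17.4% ± 1.94 in Control cells (SD, n = 3 each), a difference of 18.6 percentage points, and it was 18.6 points also as a share of isoform counts. Its own level was 6.28, 6.84 and 7.76 FPKM in the rShh libraries, against 5.06, 3.60 and 3.54 FPKM in the Control libraries, a 1.71-fold difference of the means in a gene whose total was lower. It had 1955 to 2399 counts in the rShh libraries and 863 to 1351 in the Control libraries. The level of ENSRNOT00000073636 went the other way, with 12.5, 11.8 and 12.03 FPKM in the rShh libraries against 20.5, 13.4 and 17.4 FPKM in the Control libraries, and no rShh library reached the lowest Control library. The ratio of ENSRNOT00000073636 to ENSRNOT00000080190 was 1.76 ± 0.225 in rShh cells and 4.23 ± 0.608 in Control cells (SD, n = 3 each).

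ENSRNOT00000083542, which starts at 100768637, the first start of the gene, stood apart in 1 library. It had 13, 28 and 38 counts in the rShh libraries, against 54, 1550 and 62 in the Control libraries. In Control replicate 2 it thus held 26.1% of the Bdnf counts (Wilson 95% interval 25.01% to 27.2%, counting error only), while its share of counts ran from 0.216% to 0.616% in the rShh libraries and was 0.783% and 1.20% in the other two Control libraries. The share of ENSRNOT00000073636 was low in that same library. Added together, which was done after the values were seen, ENSRNOT00000083542 and ENSRNOT00000073636 made up 65.2%, 63.5% and 60.9% of Bdnf FPKM in the rShh libraries, against 80.4%, 84.1% and 83.2% in the Control libraries. On this sum Control replicate 2 was like the other Control libraries. The other starts held almost nothing, so this sum is nearly the remainder after the share of ENSRNOT00000080190. It therefore adds nothing to that share. Without Control replicate 2, the change in the mean share of ENSRNOT00000073636, rShh minus Control, was -18.1 points, and with it -10.9 points. That of ENSRNOT00000080190 was 17.8 points without it.

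The remaining starts were barely used. ENSRNOT00000077703 (84 counts) and ENSRNOT00000089233 (42 counts), which start 1202 and 2338 bases after the first start, were listed in rShh replicate 1 and at 0 in the other 5 libraries. ENSRNOT00000083289, which starts 20169 bases after the first start, had 7, 0 and 8 counts in the rShh libraries, against 0 in each Control library. ENSRNOT00000090445, whose start lies 20225 bases after the first and which has 3 exons, had 5, 3 and 3 counts in the rShh libraries, against 0, 2 and 0 in the Control libraries. None of these levels allows a comparison between the groups.

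**Figure D2:**
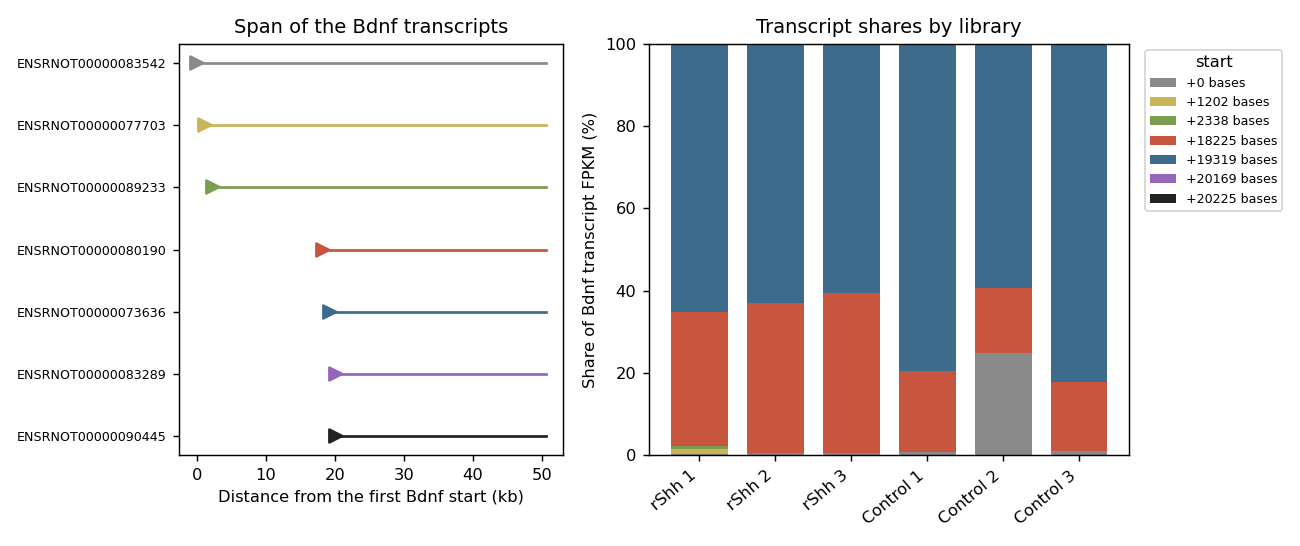
Left, the 7 Bdnf transcripts from start (arrowhead) to end, as distance in kb from the first start of the gene; right, the share of each transcript in the summed Bdnf FPKM (percent) in each library, coloured by start. The transcript starting at +18225 bases holds 32.6% to 38.9% in the rShh libraries and 15.9% to 19.6% in the Control libraries, and the one starting at +0 holds 24.8% in Control replicate 2.

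A change in transcript shares of this size was not rare. Over 2914 genes with at least 2 transcripts and a summed level of at least 1 FPKM in both groups, the largest change of a mean share had a median of 3.27 points, and its 90th percentile was 17.8 points. Bdnf, at 18.6 points, was among the 9.23% of genes with a change at least as large. At least 1 transcript share was without overlap between the groups in 22.8% of these genes. Over 13699 isoforms tested with limma, 56.5% passed at an adjusted p below 0.05.

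**Figure D3:**
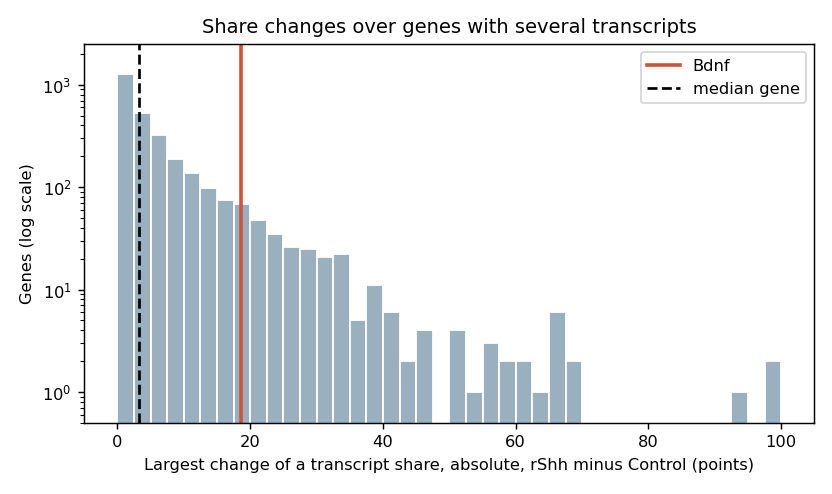
Number of genes (log scale) by the largest absolute change in the mean share of any of their transcripts, rShh minus Control, in percentage points, over 2914 genes. The solid line marks Bdnf at 18.6 points and the dashed line the median gene at 3.27 points.

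By profile over the 6 libraries, the genes most like Bdnf were Pou6f1, a POU-domain transcription factor, with a Pearson correlation of log2(CPM + 1) of 0.999, Sgms2, a sphingomyelin synthase, at 0.996, Tsen54, a subunit of the tRNA splicing endonuclease, at 0.994, Znfx1, an RNA helicase, at 0.992, and Prkci, an atypical protein kinase C, at 0.991. They were the closest of 11215 genes compared, and the 6 points share their libraries and the difference between the groups. All 5 had their highest level in Control replicate 1, the library in which Bdnf was also highest.

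The genes that work with the members, listed for their roles with earlier results known, went both ways. The 65 that were tested divide into 25 that rose, 17 that fell and 23 that missed the threshold (edgeR adjusted p below 0.05), so 64.6% passed against 60.3% of all genes, and their median log2 change was -0.0045 against 0.01. Among the other ligands, Artn, artemin, a ligand of the GDNF family, fell to 3.25 ± 0.278 CPM in rShh cells, against 5.39 ± 1.008 CPM in Control cells (log2 change -0.73, SE 0.19, edgeR adjusted p = 0.00678). Gdnf and Artn thus differed in opposite directions within the GDNF family. The ligands Ntf4, Nrtn and Pspn were below 1 CPM on average in both groups and did not pass.

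The receptors for these ligands were mostly low or not detected. Ret, the kinase through which GDNF signals, had 0, 4 and 6 counts in the rShh libraries, against 0, 13 and 4 in the Control libraries. Gfra3 was also too low to be tested, and Gfra1, the main GDNF co-receptor, Gfra2 and Gfral were not detected. Gfra4, Sorcs1 and Sorcs2, the last a sortilin relative that binds neurotrophin precursors, averaged 0.245 to 0.844 CPM in rShh cells and 0.356 to 1.297 CPM in Control cells and did not pass. The exception was Ncam1, an adhesion molecule that can also bind GDNF, which rose to 278 ± 8.37 CPM in rShh cells, against 234 ± 11.8 CPM in Control cells (log2 change 0.25, SE 0.05, edgeR adjusted p = 0.00281).

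Genes that sort or cut neurotrophin precursors changed in 8 of 9 tested, 5 higher and 3 lower. This is 88.9%, against 60.3% of all genes tested. The list is short and was drawn up with earlier results known, so nothing is read from this share. Plat, tissue plasminogen activator, which starts the plasmin cleavage of the BDNF precursor, rose to 244 ± 6.31 CPM in rShh cells, against 61.8 ± 1.304 CPM in Control cells (edgeR adjusted p = 2.41e-09). Its substrate gene Plg had 0, 9 and 0 counts in the rShh libraries, against 4, 0 and 0 in the Control libraries. Mmp3, a metalloproteinase, rose to 153 ± 8.19 CPM in rShh cells, against 21.9 ± 1.91 CPM in Control cells (edgeR adjusted p = 2.82e-09). Pcsk5, a proprotein convertase, fell to 20.8 ± 2.19 CPM in rShh cells, against 64.2 ± 2.12 CPM in Control cells (edgeR adjusted p = 1.74e-07). Furin, the convertase of the secretory route, was at 127 ± 10.2 CPM in rShh cells and 136 ± 9.31 CPM in Control cells and did not pass (edgeR adjusted p = 0.276). Cpe, carboxypeptidase E, which is known to sort the BDNF precursor and which was named after its values were seen, fell to 787 ± 20.0 CPM in rShh cells, against 1239 ± 6.95 CPM in Control cells (edgeR adjusted p = 7.04e-07).

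The 14 adaptors, co-receptors and sheddases of p75 tested comprised 5 that rose, 5 that fell and 4 that missed the threshold. Thus 71.4% passed, against 60.3% of all genes tested. The metalloproteinase Adam17, which sheds the p75 ectodomain, rose to 175 ± 4.17 CPM in rShh cells, against 65.4 ± 7.65 CPM in Control cells (edgeR adjusted p = 2.48e-07), and Adam10 to 81.7 ± 2.23 CPM in rShh cells, against 38.7 ± 6.21 CPM in Control cells. Psen2, a gamma-secretase subunit, fell to 10.9 ± 0.643 CPM in rShh cells, against 20.0 ± 0.798 CPM in Control cells. The 17 Trk adaptors comprised 6 that rose, 6 that fell and 5 that missed the threshold, so 70.6% passed. Shc4 rose to 14.6 ± 3.21 CPM in rShh cells, against 2.21 ± 0.551 CPM in Control cells (edgeR adjusted p = 2.86e-06). Its relative Shc3, named after its values were seen, had 23, 38 and 13 counts in the rShh libraries, against 0 in each Control library. Shc3 passed the filter on low counts only through the rShh libraries. Its place among the 6 rises, and in the total given above, could thus come only by differing. Rapgef1, an exchange factor, fell to 36.8 ± 1.12 CPM in rShh cells, against 60.6 ± 1.88 CPM in Control cells, and Plcg1, phospholipase C gamma, to 116 ± 2.48 CPM in rShh cells, against 157 ± 0.419 CPM in Control cells.

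Known regulators of Bdnf transcription rose in 8 of 16 tested, fell in 2 and did not pass in 6. The share that passed, 62.5%, was close to the 60.3% of all genes tested, so nothing is read from this count. Bhlhe40, a basic helix-loop-helix repressor, rose to 95.7 ± 6.46 CPM in rShh cells, against 26.8 ± 1.68 CPM in Control cells (edgeR adjusted p = 3.23e-08). The MADS-box factors Mef2c and Mef2a rose to 44.0 ± 3.19 and 84.5 ± 2.97 CPM in rShh cells, against 8.68 ± 0.872 and 40.6 ± 2.42 CPM in Control cells (edgeR adjusted p = 4.34e-08 and 6.35e-07). Npas4, an activity-induced factor named after its values were seen, rose to 7.15 ± 0.518 CPM in rShh cells, against 0.771 ± 0.224 CPM in Control cells (edgeR adjusted p = 1.69e-06). Creb1, which encodes the factor that gives the cAMP response element its best-known activator and was likewise named afterwards, rose to 9.91 ± 0.595 CPM in rShh cells, against 6.83 ± 0.602 CPM in Control cells (edgeR adjusted p = 0.00400). Usf1 and Usf2, E-box factors that complete the count of falls, had 39.5 ± 0.737 and 44.7 ± 4.16 CPM in rShh cells, against 55.0 ± 5.42 and 63.8 ± 6.31 CPM in Control cells (edgeR adjusted p = 0.000544 and 0.000795).

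**Figure D4:**
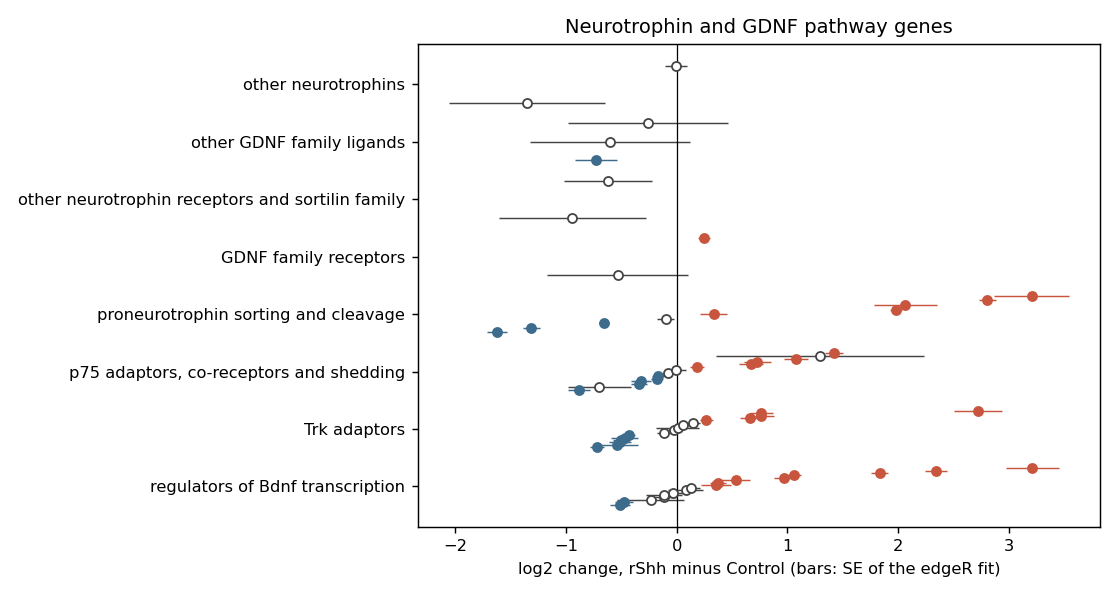
log2 change (rShh minus Control) and its SE from the edgeR fit for each pathway gene tested, by list; filled points passed at an adjusted p below 0.05, red higher and blue lower, and open points did not pass. Shc3, at 0 counts in every Control library, is left out; the filled points lie on both sides of 0, with the largest rises among the cleavage and transcription lists.

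Some markers of nerve and glia also differed between the groups, and their part in these results, like that of the mitochondrial share, was not tested. Of 12 neuron markers with a row, the summed level was 25.3 to 29.7 CPM in the rShh libraries and 169 to 208 CPM in the Control libraries. Of 8 tested, 5 fell, none rose and the other 3 missed the threshold (edgeR adjusted p below 0.05). The 62.5% that passed were all lower, where 28.8% of all genes tested were lower and 60.3% passed in either direction. The list is short, so nothing is read from this share. Gap43, among the falls, had 2, 0 and 0 counts in the rShh libraries, against 91, 50 and 57 in the Control libraries. Syt1, also among the falls, had 12, 12 and 0 counts in the rShh libraries, against 51, 51 and 29 in the Control libraries. Both passed the filter on low counts only through the Control libraries. Most of the summed level was Tubb3, a tubulin, at 19.3 ± 0.334 CPM in rShh and 155 ± 22.8 CPM in Control cells. Of the defining markers, Snap25 had 0 to 33 counts in the rShh and 0 to 11 in the Control libraries. Elavl4 had 0 in the rShh and at most 7 in the Control libraries, and Rbfox3, Elavl3 and Syp were not detected. Of 8 Schwann cell and glia markers with a row, the summed level was 175 to 185 CPM in the rShh libraries and 351 to 379 CPM in the Control libraries, mostly Pmp22 and S100b, the second of which cartilage-type cells also express. The defining marker Gfap had at most 14 counts in the rShh and 6 counts in the Control libraries, and Sox10 was not detected. Of 4 macrophage and leukocyte markers with a row, the summed level was 13.0 to 15.5 CPM in the rShh libraries and 10.9 to 14.1 CPM in the Control libraries, nearly all of it Cd14, with Ptprc and Aif1 not detected. Of 7 endothelial and mural markers with a row, the summed level was 643 to 647 CPM in the rShh libraries and 396 to 462 CPM in the Control libraries, mostly Cspg4 and Mcam, with Pecam1 and Cdh5 not detected.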

How the data were processed

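Poly(A) RNA was sequenced from 3 rShh and 3 Control samples. The tools listed in the submitters' processing notes are StringTie 1.3.4d, HISAT2 2.0.4, edgeR, DESeq2 and cutadapt 1.9, without role, setting or genome build in the sources used here. The authors deposited, per gene and per isoform, whole-number counts that are not normalized and FPKM values, which per the file headers are scaled to length and depth. The FPKM imply totals of 1.17 to 1.20 times the summed counts. The members, lists and tests were chosen with earlier results of these data known. Genes were tested on counts with edgeR 4.0.16 in R 4.3.3 (filterByExpr with a minimum count of 10, TMM, glmQLFit and glmQLFTest, two-sided, group only), and isoforms averaging at least 1 FPKM by limma-trend (limma 3.58.1) after a log2(FPKM + 1) transform, which understates changes at low levels. Benjamini-Hochberg adjustment was used, with a threshold of 0.05. A log2 change is rShh minus Control. Within groups the chi-square per degree of freedom between libraries was 10.5 to 50.5, more than counting error alone gives. This cannot exclude repeat preparations from the same cells. Named are the members and their transcripts, the ligands and receptors of the pathway lists, the 3 genes of smallest p in each other list, the 5 genes most like Bdnf, and genes said to be named afterwards; some listed genes are not reported here. Alternatives were other scalings, filters, pseudocounts and tools (DESeq2 1.42.0), a replicate block, shares of counts, and leaving out each library.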

Additional observations from a re-analysis of the deposited data

How the results depend on the processing

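Across 11 alternatives (median-ratio scaling, DESeq2, no filter, limma on log2(FPKM + 1), a replicate block and leaving out each library), the number of genes called ranged from 7838 to 9252 beside 8914, and the number of pathway genes called from 36 to 42 beside 42. Leaving out each library in turn gave 7838 to 9252 genes, 36 to 42 pathway genes and 6418 to 7846 isoforms, and differences of 17.1 to 20.3 points in the share of ENSRNOT00000080190. The isoforms called were 7741, and 6418 to 8286 over 10 alternatives. The log2 change of Bdnf ran from -0.34 to -0.21, of Gdnf from 0.80 to 1.05, and of Sort1 from -1.20 to -1.03. None changed sign under these alternatives. Ntrk2, below the level limma used, ran from 3.03 to 4.14, with the exception of the 8.21 without Control replicate 1. The share change of ENSRNOT00000073636 ran from -18.1 to -6.66 points.

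The replicate numbers showed no sign of pairing the libraries. Same-numbered samples deviated from their group means with correlations of -0.083, -0.0071 and -0.00075. These values cannot exclude that samples were prepared in pairs. With the replicate number as a block, 8440 genes, 41 pathway genes and 7045 isoforms were called. At 50758195 to 70031072 counts per library, Ntrk2, Ntrk3 and Ngfr stayed at or below 51 counts, which limits every statement on the receptors.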

Other observations

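The deposited descriptions hold the words neurotrophic or neurotrophin for 6 further genes, chosen after their values were seen and given without a test. Cntf, ciliary neurotrophic factor, had 305, 293 and 283 counts in the rShh libraries, against 74, 38 and 50 in the Control libraries, a 4.42-fold difference in mean CPM with no overlap. Its receptor subunit gene Cntfr had 0, 6 and 0 counts in the rShh libraries and 0 in each Control library. Nradd, a relative of the p75 receptor, averaged 30.6 ± 1.33 CPM in rShh cells and 54.1 ± 5.56 CPM in Control cells, and Nenf, neudesin, 33.3 ± 2.60 CPM in rShh cells and 56.7 ± 11.7 CPM in Control cells (SD, n = 3 each), both without overlap. Manf, a secreted protein of the endoplasmic reticulum, averaged 199 ± 4.68 CPM in rShh cells and 258 ± 23.6 CPM in Control cells. Cdnf, its relative, overlapped at 3.01 ± 0.428 CPM in rShh cells and 1.96 ± 1.003 CPM in Control cells.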
